A study of Mus musculus with 16 samples.

Results

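The genes described here encode the heat shock proteins and their co-chaperones. They were chosen by name from the array's gene list: the Hsp90, Hspa, Dnaja, Dnajb and Dnajc genes, the numbered Hspb genes, Hspd1, Hspe1, Hsph1, the transcription factors Hsf1 and Hsf2, Bag1 to Bag6 and Stub1. This rule found 81 genes among the 36711 genes tested, read by 167 of 56605 probes, and all 81 were tested. Colon RNA of RjOrl:SWISS pups was measured on 1-colour Agilent arrays, 1 array per pup, to compare C-section delivery (CSD, labelled HYS) with vaginal delivery (VD). The 8 CSD pups were taken by hysterectomy from mothers 3 and 4 and raised by foster mothers, and the 8 VD pups were born to mothers 5 and 6, whose litters were interchanged. Each delivery mode therefore rested on 2 litters. The CSD group held 4 males and 4 females. The VD group held 6 males and 2 females, and both VD females came from mother 5. The mothers were kept under specific pathogen-free conditions, and the RNA was taken at weaning in both groups.

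Heat shock proteins keep other proteins folded. HSP70 proteins bind unfolded stretches, J proteins (the Dnaj genes) deliver substrates and start ATP hydrolysis, and nucleotide exchange factors such as the HSP110 and BAG proteins release the substrate. HSP90 acts later, on partly folded kinases and receptors, the ring-shaped HSP60 with its lid HSP10 folds proteins in mitochondria, and small heat shock proteins hold aggregation-prone proteins without ATP. Many of these genes are switched on by HSF1 through heat shock elements, and those of the endoplasmic reticulum (ER) by the unfolded protein response through ER stress response elements. In the intestine, the inducible HSP70 and HSP25 (Hspb1) are known as protective proteins of the epithelium that bacterial products can induce.

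Between 61.56% and 64.53% of spots were well above background on the CSD arrays and between 58.70% and 64.87% on the VD arrays. VD pup 11 had the lowest share, at 58.70%, and the next VD array had 63.76%. The arrays of CSD pups 8 and 7 had 200 and 205 spots marked as outliers by the scanner software, against 65 to 107 on the other arrays. No spot was saturated. The 2 slides each held 4 CSD and 4 VD arrays. All 5 colonocyte markers (Slc26a3, Car1, Car4, Krt20 and Aqp8) were well above background on all 16 arrays, whereas the small intestinal markers Sis, Lct and Apoa4 were so on none. Of the 81 genes, 73 were well above background on all 16 arrays and 3 on none (Dnajb7, Dnajb13 and Dnajc5g).

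RefSeq promoter windows of GRCm38.p6, 250 bases before to 50 after a gene's start, were found for 65 of the 81 genes. A heat shock element of 3 units was searched on both strands as GAA and TTC in alternation, any 2 bases apart, and overlapping matches were kept. It stood in the windows of 4 of the 65 genes (Hspd1, Hspe1, Hsph1 and Dnajb6), or 6.15%, and in 0.662% of the windows of all 27025 genes. With 2 units the shares were 27.7% and 17.0%. The windows of these genes are shown because they meet the longer of these motifs, with the element in capitals. The first is counted on the minus strand of chr1:55088050-55088079 and the second on the plus strand of chr1:55088051-55088080, so that Hspd1 and Hspe1 read the same element in opposite directions. In Hsph1, which has 2 starts in RefSeq, the element lies 16 to 28 bases after the start used here. The Hsph1 window lies on the minus strand of chr5:149636279-149636308, and that of Dnajb6 on the plus strand of chr5:29735844-29735873.
Hspd1: gccttccgGAAGGTTCTAGAAcggaccgtg
Hspe1: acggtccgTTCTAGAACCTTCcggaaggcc
Hsph1: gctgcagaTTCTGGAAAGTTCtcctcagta
Dnajb6: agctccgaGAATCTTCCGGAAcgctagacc

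The ER stress response element, CCAAT followed after any 9 bases by CCACG, was found on either strand in 3 of the 65 windows, those of Hspa5, Hsp90b1 and Dnajc3, or 4.62%, against 0.137% of all genes. Among 20 other genes of the ER with a window, 6 held it, or 30%, and their log2 fold changes lay on both sides of 0: Syvn1 had 0.20, Pdia6 0.18, Creld2 0.21, Calr 0.03, Canx 0.02 and Derl3 -0.60. The windows of the 3 members are shown because genes of the ER are described together further on. The Hspa5 window is on the plus strand of chr2:34772020-34772049, the Hsp90b1 window on the minus strand of chr10:86705632-86705661, the farther from the start of 2 elements in Hsp90b1 (the other lies in chr10:86705527-86705556), and the Dnajc3 window on the plus strand of chr14:118937822-118937851.
Hspa5: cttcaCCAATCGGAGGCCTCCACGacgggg
Hsp90b1: caagcCCAATCGCAAGGAGCCACGcttcgg
Dnajc3: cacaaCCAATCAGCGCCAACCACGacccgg

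Of the 81 genes, 3 rose in CSD pups and 0 fell at an adjusted p under 0.05 in limma. They were Hsp90aa1, the stress-inducible cytosolic HSP90, Dnajb9, a J protein of the ER, and Dnajc2, a J protein of the ribosome. Among all 36711 genes tested, 1.26% passed, 0.708% upwards and 0.55% downwards, and the 3 called genes were 3.7% of the 81. With a litter correlation of 0.2 none of the 81 passed, and 11 of all genes did. On slide 2 only, none of the 81 and none of all genes passed. At an unadjusted p under 0.05, 22 of the 81 genes were higher in CSD pups (27.2%, against 7.39% of all genes) and 6 were lower (7.41%, against 7.11%). With a litter correlation of 0.2 these counts were 14 and 3, with 2690 of all 36711 genes in either direction, and on slide 2 only they were 12 and 3, with 3793 of all genes. The 36711 genes include many that were not well above background, unlike most of the 81. With only probes well above background on every array of a group, 2 of 73 members passed, and 362 of 21498 genes (1.68%). There 20 members were higher and 6 lower at an unadjusted p under 0.05, with 4077 of the 21498 genes in either direction. The log2 fold change was above 0 for 51 of the 81 genes, or 63%, against 51.7% of all genes, with a median of 0.04 against 0.00. For none of the 81 did the 8 CSD pups lie wholly on one side of the 8 VD pups, as they did for 0.49% of all genes. Both CSD litter means lay on one side of both VD litter means for 44 of the 81 genes, or 54.3%, and for 42% of all genes. Genes are not independent of each other, so these shares are a description.

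**Figure D1:**
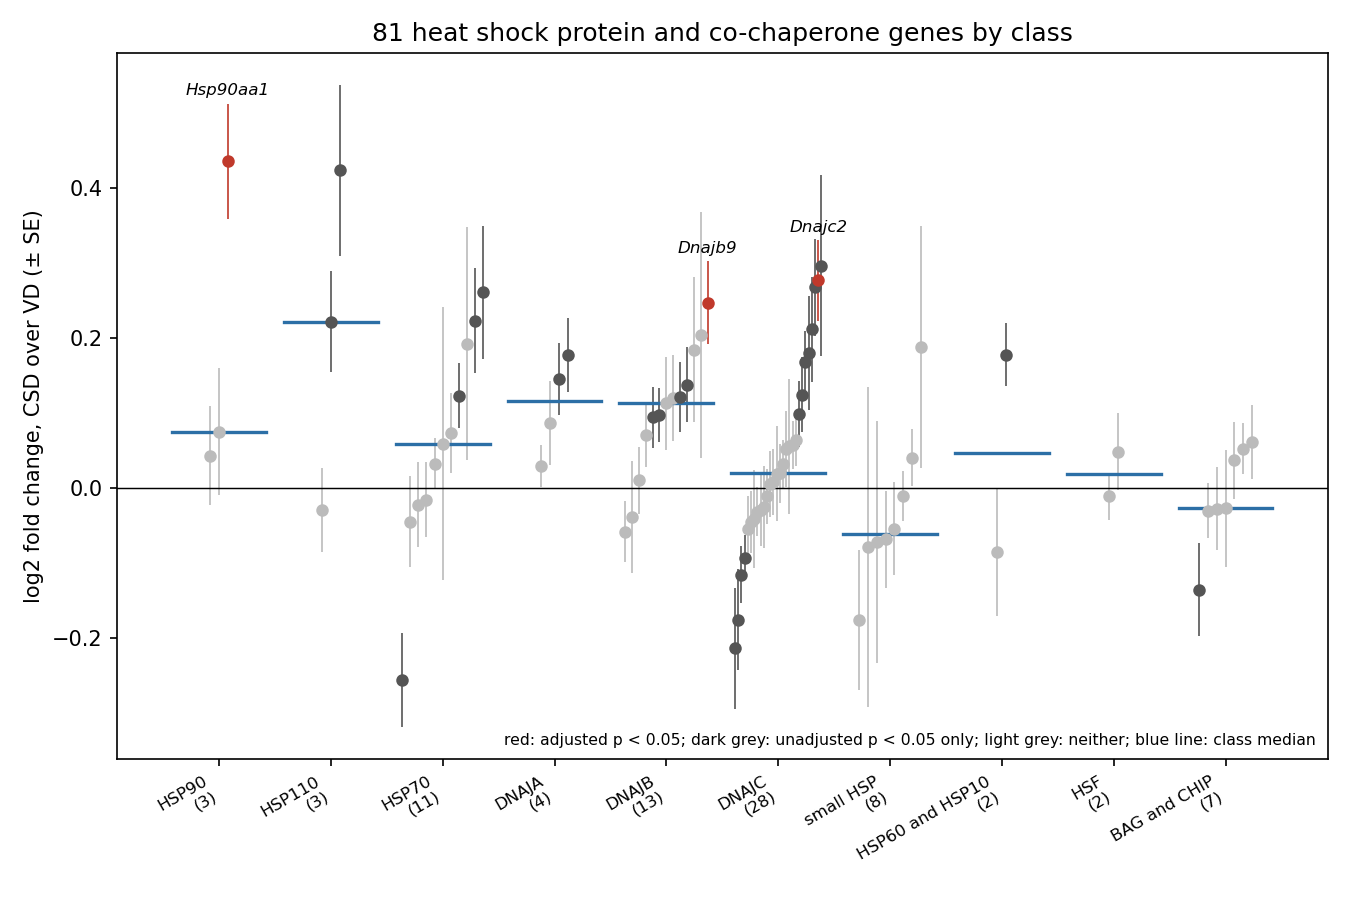
Log2 fold change of CSD over VD pups (y axis, with SE) for the 81 genes, sorted within class along the x axis; red points passed the adjusted p of 0.05, dark grey points an unadjusted p of 0.05 only, and blue lines are class medians. The 3 red points, Hsp90aa1, Dnajb9 and Dnajc2, all lie above 0, and the DNAJA and DNAJB medians lie above that of the small HSP class.

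Of the 3 HSP90 genes, the inducible cytosolic one passed, and the differences between the 3 genes were not tested. The log2 normalized intensity of Hsp90aa1 ran from 10.82 through a median of 11.32 to 11.40 in CSD pups and from 10.56 through 10.81 to 10.92 in VD pups. All CSD pups but pup 8, which had 10.82, lay above every VD pup. The means were 11.24 ± 0.19 and 10.77 ± 0.13 (SD, n = 8 each), and the log2 fold change was 0.44 ± 0.08 (SE; 1.35-fold, adjusted p = 0.0146). Over all 12870 assignments of pups to the groups, the exact two-sided permutation p was 0.000622, with litter and sex left out. As the tissue was whole colon, more cells that express a gene and more RNA per cell cannot be told apart, here and below.

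The Hsp90aa1 value is a mean over 3 probes that did not move alike. The probe on chr12:111932511-111932796 (mm9, minus strand), which spans a splice junction, differed by 0.82 on the log2 scale, and the probe on chr12:111933318-111933377 by 0.51. The remaining probe, designed on an expressed sequence tag, was well above background in 0 CSD pups and 1 VD pup, with a difference of -0.02, and drew the mean down. The 2 bright probes, each 60 bases long, are printed because they carry the difference.
Hsp90aa1, spanning a splice junction: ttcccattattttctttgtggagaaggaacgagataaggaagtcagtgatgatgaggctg
Hsp90aa1, within one stretch: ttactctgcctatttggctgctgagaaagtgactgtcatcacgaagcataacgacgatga

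The constitutive cytosolic Hsp90ab1 had 16.31 ± 0.21 in CSD and 16.25 ± 0.12 in VD pups (log2 fold change 0.07 ± 0.08, adjusted p = 0.755). Its CSD pups held both the lowest value of all, 15.91, and the highest, 16.51. Hsp90b1, the HSP90 of the ER (GRP94), had 14.97 ± 0.12 and 14.91 ± 0.14 (log2 fold change 0.04 ± 0.07, adjusted p = 0.827), and the VD range held every CSD pup.

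**Figure D2:**
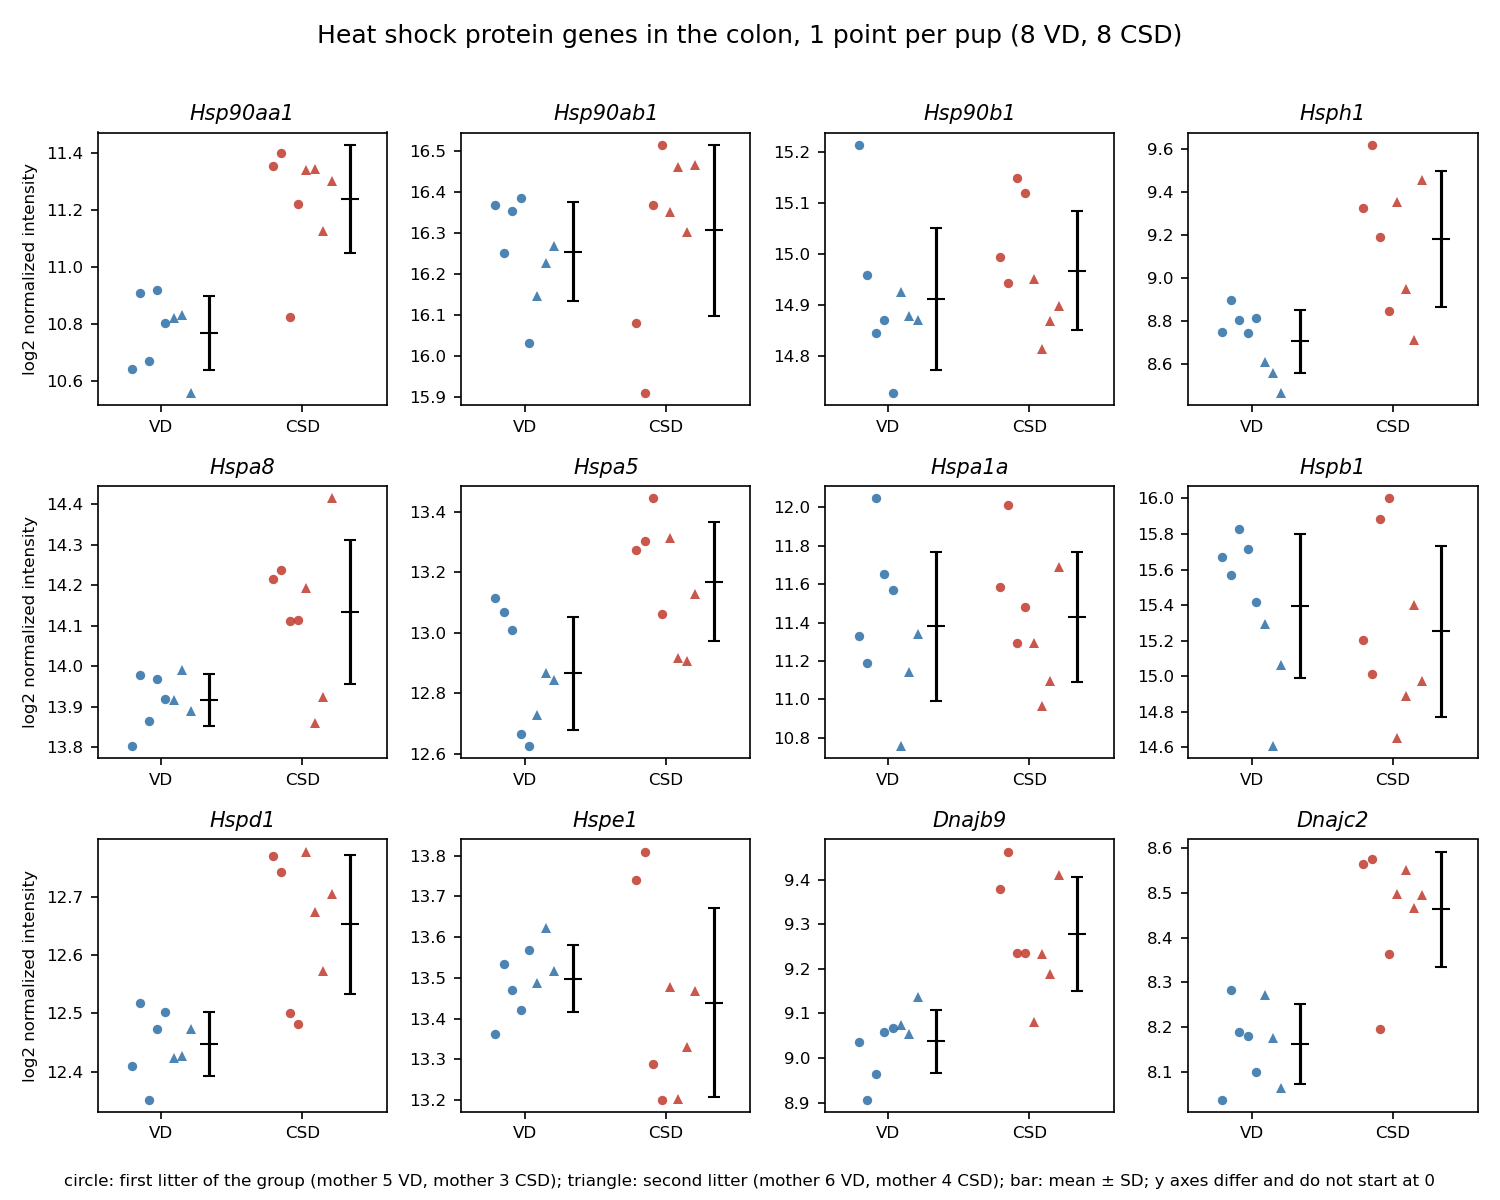
Log2 normalized intensity (y axes, which differ between panels) of 12 genes in each of the 8 VD and 8 CSD pups (x axis), with circles and triangles for the litters of each group and bars for mean ± SD. In Hsp90aa1, Dnajb9 and Dnajc2 all but 1 CSD pup lie above every VD pup, and in Hsp90ab1, Hsp90b1, Hspa1a, Hspb1 and Hspe1 the groups overlap.

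Hsph1 (HSP105), an inducible HSP110 protein and exchange factor of HSP70, had nearly the same fold change as Hsp90aa1 when all probes were averaged, with more spread. It ran from 8.71 through 9.26 to 9.62 in CSD pups and from 8.47 through 8.75 to 8.90 in VD pups, and 6 of the 8 CSD pups lay above all VD pups. The log2 fold change of 0.42 ± 0.11 did not pass (adjusted p = 0.0832). Its 2 bright probes differed by 0.55 and 0.55, and those of Hsp90aa1 by 0.82 and 0.51. The dimmest Hsph1 probe, well above background in 5 CSD and 2 VD pups, differed by 0.17. The related Hspa4l had 9.45 ± 0.14 and 9.23 ± 0.12 (0.22 ± 0.07, adjusted p = 0.121), and Hspa4 had 10.70 ± 0.06 and 10.73 ± 0.13.

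No HSP70 gene passed. Hspa8 (HSC70), the constitutive cytosolic HSP70, had 14.13 ± 0.18 in CSD and 13.92 ± 0.06 in VD pups (log2 fold change 0.22 ± 0.07, adjusted p = 0.132), and CSD pups 2 and 6 lay among the VD pups. The heat-inducible pair Hspa1a and Hspa1b, which encode nearly the same protein, differed by 0.06 ± 0.18 (adjusted p = 0.921) and 0.19 ± 0.16 (adjusted p = 0.629). Their probes share no run over 5 bases, and in both genes the spread within a group, with SDs from 0.27 to 0.39, was larger than the difference. Hspa9 (mortalin), the mitochondrial HSP70, differed by 0.12 ± 0.04 (adjusted p = 0.184). Hspa2, an HSP70 known from the testis, had the lowest fold change of the 81: it ran from 9.42 through 9.56 to 9.78 in CSD pups and from 9.69 through 9.86 to 9.9997 in VD pups, and 6 of the 8 CSD pups lay below every VD pup. Its log2 fold change of -0.26 ± 0.06 did not pass (adjusted p = 0.0606).

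The J proteins held the other 2 called genes. Dnajc2 (MPP11), which sits on the ribosome with the HSP70-like Hspa14 and acts on nascent chains, ran from 8.19 through 8.50 to 8.57 in CSD pups and from 8.04 through 8.18 to 8.28 in VD pups. Only CSD pup 8, at 8.19, lay within the VD range. Its means were 8.46 ± 0.13 and 8.16 ± 0.09, and the log2 fold change was 0.28 ± 0.05 (SE; adjusted p = 0.0243; exact permutation p = 0.000466). The probe on chr5:21272454-21272513 (mm9, minus strand) differed by 0.46, and a second probe, well above background in 3 CSD and 4 VD pups, by 0.10. Hspa14, its partner, had 9.16 ± 0.06 and 9.19 ± 0.12 (log2 fold change -0.02, adjusted p = 0.923). The bright Dnajc2 probe is printed here, as it carries the call.
Dnajc2: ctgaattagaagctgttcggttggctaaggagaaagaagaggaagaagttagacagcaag

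Dnajb9 (ERdj4), a J protein that brings misfolded ER proteins to BiP, ran from 9.08 through 9.24 to 9.46 in CSD pups and from 8.91 through 9.06 to 9.14 in VD pups. CSD pup 1, at 9.08, was the only CSD pup within the VD range. The means were 9.28 ± 0.13 and 9.04 ± 0.07, the log2 fold change 0.25 ± 0.06 (SE; adjusted p = 0.0418; exact permutation p = 0.000311), and both of its probes differed upwards, by 0.30 and 0.19.

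In the whole J protein family of 45 genes, 32 had a fold change above 0. All 4 DNAJA genes did, and so did 11 of the 13 DNAJB genes. Dnaja1, the main cytosolic partner of HSP70, had 0.18 ± 0.05 (adjusted p = 0.0922) and Dnaja2 0.14 ± 0.05 (adjusted p = 0.153). The brightest Dnaja1 probe differed by 0.38 and its dimmer probes by 0.10 and 0.04, and Dnaja1 passed in 3 of 39 alternatives. Dnajb1 (HSP40), the classic heat-inducible J protein, had 13.24 ± 0.19 and 13.05 ± 0.19, a difference within the spread of the pups (0.18 ± 0.10, adjusted p = 0.410). Dnajb6, whose window holds a heat shock element, had 0.12 ± 0.05 (adjusted p = 0.226), and Dnajb14 had 0.14 ± 0.05 (adjusted p = 0.197).

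The 28 DNAJC genes lay on both sides, 17 above 0 and 11 below. Dnajc21, which takes part in ribosome assembly, had 0.17 ± 0.04 (adjusted p = 0.0639), with 7 of 8 CSD pups above all VD pups. Dnajc8, a protein of the spliceosome, had 0.27 ± 0.06 (adjusted p = 0.0573), but its 4 probes disagreed, with 0.58 and 0.67 for a pair and -0.08 and -0.10 for the other pair, so that no single difference describes it. The largest fold change of the class, 0.30 ± 0.12 in Dnajc5b (adjusted p = 0.256), came from a probe well above background in only 6 CSD and 3 VD pups. On the low side stood Dnajc17 at -0.21 ± 0.08 (adjusted p = 0.209), Dnajc12 at -0.18 ± 0.07 (adjusted p = 0.222), Dnajc30, of mitochondria, at -0.12 ± 0.04 (adjusted p = 0.148) and Dnajc4 at -0.09 ± 0.03 (adjusted p = 0.147).

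The chaperones of the ER can be read beside the response elements printed above. Hspa5 (BiP), the HSP70 of the ER, ran from 12.91 through 13.20 to 13.44 in CSD pups and from 12.63 through 12.86 to 13.12 in VD pups, and 5 of the 8 CSD pups lay above all VD pups. Its log2 fold change was 0.26 ± 0.09 and did not pass (adjusted p = 0.162). Its 3 probes differed by 0.08, 0.35 and 0.35, and when each gene was read by its brightest probe, Hspa5 passed (0.35, adjusted p = 0.00848). In that reading Dnajb9 no longer passed (adjusted p = 0.0970), Hspd1 had an adjusted p of 0.163, and Dnajc8 had a log2 fold change of -0.10 (adjusted p = 0.467). Dnajc3 (p58IPK) had 0.12 ± 0.05 (adjusted p = 0.251), Dnajb11 (ERdj3) 0.10 ± 0.04 (adjusted p = 0.201) and Dnajc10 (ERdj5) 0.10 ± 0.04 (adjusted p = 0.307). Hsp90b1, with 2 elements of the same kind, had 0.04.

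Of the mitochondrial pair that shares a promoter and a heat shock element, only Hspd1 (HSP60) came near the threshold. Hspd1 ran from 12.48 through 12.69 to 12.78 in CSD pups and from 12.35 through 12.45 to 12.52 in VD pups, with 6 of 8 CSD pups above all VD pups (0.18 ± 0.04, adjusted p = 0.0542). Hspe1 (HSP10) had 13.44 ± 0.23 and 13.50 ± 0.08 (-0.09 ± 0.09, adjusted p = 0.713). Hspe1 was more spread in CSD pups, of which 2 lay above and 4 below all VD pups. The difference between the 2 genes was not tested.

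The 8 numbered Hspb genes, classed by name as small heat shock proteins, did not pass, and 6 of them had fold changes below 0. Of these 6, Hspb3 was well above background in 0 CSD pups and 1 VD pup. Hspb1 (HSP25), the small heat shock protein of the gut epithelium, had 15.25 ± 0.48 and 15.40 ± 0.40 (-0.08 ± 0.21, adjusted p = 0.908). Hspb2 had -0.18 ± 0.09 (adjusted p = 0.411) and Hspb7 0.19 ± 0.16 (adjusted p = 0.655), both known from muscle. The transcription factors did not pass, with 10.23 ± 0.04 and 10.23 ± 0.06 for Hsf1 (-0.01 ± 0.03, adjusted p = 0.906) and 0.05 ± 0.05 for Hsf2 (adjusted p = 0.737). Among the BAG proteins and CHIP, 3 of 7 were above 0. Bag3, an HSF1 target of the stress response, had 13.31 ± 0.10 and 13.25 ± 0.07 (0.06 ± 0.05, adjusted p = 0.634). Bag5 had 0.05 ± 0.03 (adjusted p = 0.533). Stub1 (CHIP), the ubiquitin ligase that marks chaperone clients for degradation, had 12.22 ± 0.13 and 12.38 ± 0.11 (-0.14 ± 0.06, adjusted p = 0.329).

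The median SD within groups was 0.103 for the 81 genes and 0.101 for all 36711 genes, bright and dim together. Of these, 21498 had probes well above background on every array of a group, and the spread of those alone was not taken. Among the 81, the SD was lowest in Dnaja3, at 0.04, and highest in Dnajb3, Hspb1 and Hspa1a, at 0.607, 0.443 and 0.362.

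Other genes of protein folding were read from lists, which were chosen with earlier results of these data known. Of all 36711 genes, 0.708% rose and 0.55% fell at an adjusted p under 0.05. In 0.49% of all genes the 2 groups did not overlap, and 51.7% had a fold change above 0. Of 23 co-chaperones of HSP90, 2 rose and 0 fell, and 14 had a fold change above 0. Fkbp5, an immunophilin of the steroid receptor complex that glucocorticoids induce, had the largest, from 8.49 ± 0.19 in VD to 9.16 ± 0.22 in CSD pups (0.65 ± 0.10, adjusted p = 0.00802), with 7 of 8 CSD pups above all VD pups. Chordc1, an HSP90-binding protein whose window also holds a heat shock element of 3 units, rose by 0.28 ± 0.06 (adjusted p = 0.0310). On the low side, Unc45b had -0.49 ± 0.15 and did not pass (adjusted p = 0.134), with 7 of 8 CSD pups below all VD pups. Its CSD litters were unlike, with means of 8.37 (mother 3) and 8.99 (mother 4), against 9.22 and 9.20 in the VD litters. At an unadjusted p under 0.05, 4 of the 23 co-chaperones were higher and 4 lower, against 7.39% and 7.11% of all genes. Among 10 nucleotide exchange and HSP70 assembly factors, 1 rose, Sgtb, by 0.16 ± 0.04 (adjusted p = 0.0397), and all its CSD pups lay above all VD pups. Of 25 genes of ER folding and the unfolded protein response, 4 rose and 1 fell. Manf, a secreted ER stress protein, rose by 0.26 ± 0.04 (adjusted p = 0.00569), and the disulphide isomerases Pdia3 and Pdia6 rose by 0.33 ± 0.06 (adjusted p = 0.0195) and 0.18 ± 0.04 (adjusted p = 0.0349). Syvn1, the ubiquitin ligase of ER-associated degradation, rose by 0.20 ± 0.04 (adjusted p = 0.0404). Ppp1r15a (GADD34), which reverses the translation block of the integrated stress response, fell by 0.40 on the log2 scale (SE 0.06, adjusted p = 0.00696), and all 8 CSD pups lay below all VD pups. The median of this list was 0.02, and Herpud1, of ER-associated degradation, had 0.31 (adjusted p = 0.143), and Derl3, of the same process, had -0.60 (adjusted p = 0.260). Of the sensors, Eif2ak3 (PERK) had 0.18 (adjusted p = 0.284) and Ern1 0.02, and Xbp1, Atf4, Atf6 and Ddit3 had fold changes from -0.01 to 0.07.

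None of the 15 genes of the TRiC chaperonin and prefoldin passed, with 12 above 0 and Pfdn1 at 0.23 (adjusted p = 0.0631) and Cct8 at 0.10 (adjusted p = 0.0939). None of 9 mitochondrial folding and protease genes passed, with Tomm20 at 0.18 (adjusted p = 0.0671) and Clpx at 0.13 (adjusted p = 0.0867). Among 5 other HSF genes and regulators, Hsbp1 had 0.08 and Hsf2bp 0.10, and neither passed. The 11 other heat-inducible genes had a median of -0.01, with Cryab at -0.13 and Ubb at -0.08, and none passed.

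**Figure D3:**
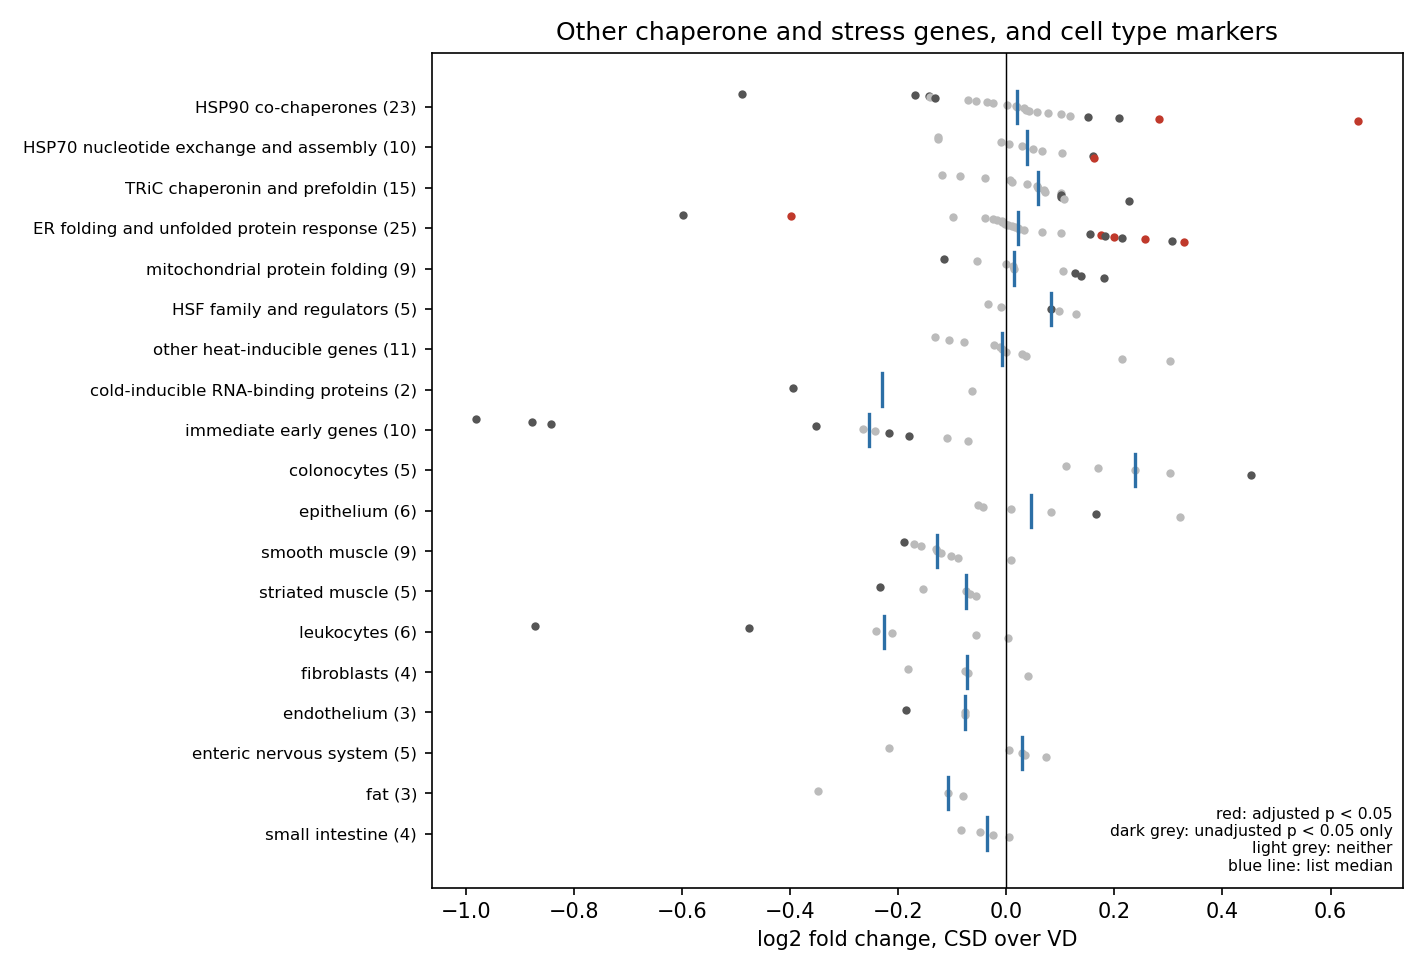
Log2 fold change of CSD over VD pups (x axis) for every gene of the other chaperone and stress lists and of the cell type marker lists (y axis, number of genes in brackets); colours are as in the plot by class and blue lines are list medians. The red points are in the lists of HSP90 co-chaperones, nucleotide exchange and ER folding, and all 10 immediate early genes lie below 0.

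All 10 immediate early genes were lower in CSD pups and none passed, with 6 at an unadjusted p under 0.05. Egr1 had 9.23 ± 0.54 and 10.27 ± 0.66 (-0.98 ± 0.30, adjusted p = 0.121) and Atf3 -0.88 ± 0.29 (adjusted p = 0.146). Their summed level on the log2 scale ran from 14.16 through 14.49 to 14.76 in CSD pups and from 14.40 through 14.77 to 15.40 in VD pups. Cirbp, which cold induces, had -0.40 ± 0.11 (adjusted p = 0.0936), and Rbm3, of the same kind, -0.06 ± 0.08 (adjusted p = 0.792). Their part in the chaperone differences was not tested.

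No cell type marker passed, in any list, but several lists leaned one way. All 5 colonocyte markers were higher in CSD pups, led by Slc26a3 (0.45, adjusted p = 0.112) and Car1 (0.30), with a summed log2 level from 17.18 through 17.55 to 17.79 in CSD and from 17.16 through 17.39 to 17.65 in VD pups. Epithelial markers were above 0 in 4 of 6, with Epcam at 0.17, Cdh1 at 0.32 and Krt19 at -0.05, and their summed level ran from 18.79 through 18.92 to 19.25 in CSD and from 18.82 through 18.98 to 19.20 in VD pups. Of 6 leukocyte markers 5 were lower, among them the B cell gene Cd79a (-0.48, adjusted p = 0.0987), with a summed level from 11.44 through 11.64 to 11.89 in CSD and from 11.62 through 11.90 to 12.19 in VD pups. Of 9 smooth muscle markers 8 were lower, with Smtn at -0.19 and Acta2 at -0.17 and a summed level from 17.61 through 17.81 to 18.23 in CSD and from 17.84 through 17.96 to 18.29 in VD pups. Also lower were 5 of 5 striated muscle markers (Acta1 at -0.23, Mb at -0.07), 3 of 4 of fibroblasts (Dcn at -0.18, Pdgfra at -0.08), 3 of 3 of endothelium (Cdh5 at -0.18, Kdr at -0.08) and 3 of 3 of fat (Adipoq at -0.35, Plin1 at -0.08). Mb was well above background on 1 array. Of 5 enteric nervous system markers 4 were above 0, with Uchl1 at -0.22, and Fabp6, the small intestinal marker that was measured, had -0.08. The part of cell type shares in the chaperone differences was not tested.

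Between the sexes, 1 of the 81 genes passed, against 0.0599% of all genes, and 7 had an unadjusted p under 0.05, against 6.47% of all genes. Dnajb3 ran from 7.33 to 7.96 in the 6 females and from 8.03 to 9.21 in the 10 males, with no overlap, and its female over male log2 fold change was -1.03 ± 0.16 (adjusted p = 0.0243). In 6 of the 16 fits that left out 1 pup, none of the 81 genes passed between the sexes, and none did on either slide alone. Dnajb3 is a J protein known from sperm, and in the gene table of GRCm38.p6 it overlaps 8 Ugt1a genes, which are glucuronosyltransferases of liver and gut. Whether its single probe also reads those transcripts was not tested. Delivery mode and sex did not interact for any of the 81 genes at an adjusted p under 0.05 (0.00272% of all genes), and 7 had an unadjusted p under 0.05, against 4.71% of all genes. Of these 7, 4 had an interaction above 0 and 3 below. The interaction was -0.91 for Hspb1, -0.32 for Hsp90b1, 0.36 for Dnajc28 and 0.30 for Dnajc12 (adjusted p = 0.982 each). This comparison had 2 VD females, of 1 litter.

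Between the CSD litters, 0 of the 81 genes passed, against 0.0872% of all genes, and 4 had an unadjusted p under 0.05, against 7.68% of all genes. Between the VD litters, 0 passed, against 0.893%, and 14 had an unadjusted p under 0.05, against 11.6% of all genes. Hspb1 came close there: the litter of mother 6 had 14.99 ± 0.35 (n = 3) and that of mother 5 15.64 ± 0.155 (n = 5), with a log2 difference of -0.81 after sex was taken into account (adjusted p = 0.0658). In CSD pups its litters had 15.53 ± 0.49 (mother 3) and 14.98 ± 0.31 (mother 4; n = 4 each). Dnajc1, a J protein of the ER membrane, was higher in the litter of mother 6 by 0.28 (adjusted p = 0.0588). For Hsp90aa1, the litter means were 11.20 and 11.28 in CSD and 10.79 and 10.74 in VD pups.

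**Figure D4:**
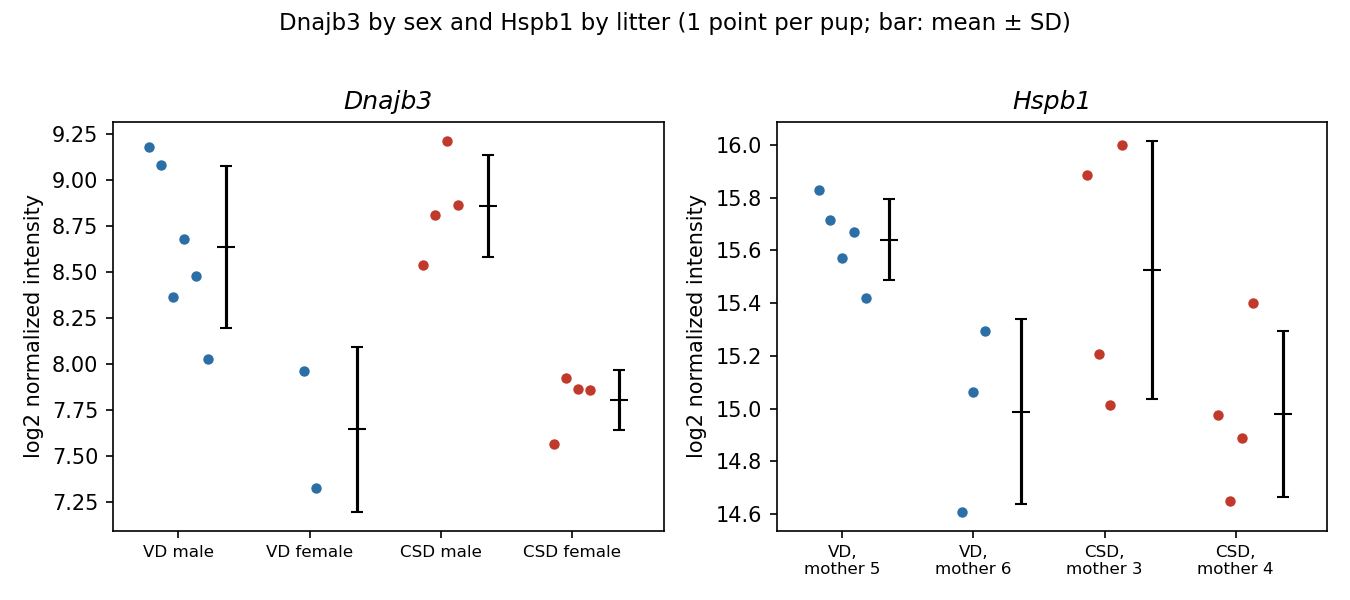
Log2 normalized intensity (y axes) of Dnajb3 by delivery mode and sex and of Hspb1 by litter (x axes), 1 point per pup with mean ± SD. Every male lies above every female in Dnajb3, between 8.03 and 9.21 against 7.33 to 7.96, and in Hspb1 the litter of mother 5 lies above that of mother 6.

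The 3 calls depended on how alike pups of a litter were taken to be. The estimated litter correlation was 0.015, and with a correlation of 0.2 none of the 81 genes passed (adjusted p = 0.227 for Hsp90aa1, 0.275 for Dnajc2 and 0.376 for Dnajb9), as with the 4 litter means as samples. Without VD pup 11, Hsp90aa1 (adjusted p = 0.0202) and Dnajc2 (adjusted p = 0.0406) passed and Dnajb9 did not (adjusted p = 0.0577). Hsp90aa1 passed whichever pup was left out, Dnajc2 in 13 of those 16 fits and Dnajb9 in 3. Without CSD pup 8, 5 of the 81 genes passed (419 of all genes), and without CSD pup 7, 1 (177 of all genes), which was Hsp90aa1. When a whole litter was left out, all 3 calls were lost without mother 4 (adjusted p = 0.120 for Hsp90aa1, 0.178 for Dnajc2 and 0.0621 for Dnajb9) and without mother 5 (0.139, 0.252 and 0.416), and that of Dnajb9 also without mother 3 (0.0780). Of the called genes of the other lists, none passed with a litter correlation of 0.2, where Manf had an adjusted p of 0.0885 and Fkbp5 of 0.162. Fkbp5, Manf and Ppp1r15a passed in 16 of the 16 fits that left out 1 pup, Pdia3 in 15, Chordc1 in 8, Pdia6 in 7, Syvn1 in 5 and Sgtb in 4. Without the litter of mother 5, Fkbp5 did not pass (adjusted p = 0.170). Over 39 alternatives, Fkbp5, Manf and Ppp1r15a passed in 32 each, Pdia3 in 28, Chordc1 in 19, Pdia6 in 18, Syvn1 in 14 and Sgtb in 12.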

How the data were processed

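Total RNA of 16 colons was hybridised with Cy3, 1 array per pup. The authors deposited the scanner's spot and background intensity for 62976 spots an array and a matrix of log2 values for 27036 genes, which they corrected, quantile normalized and averaged by gene in limma 3.38, per the submitters' processing notes and the methods. The kind of background correction is not given in the sources used here.

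Here the deposited mean spot intensity was corrected for the median background with normexp (offset 50), quantile normalized and put on the log2 scale (R 4.3.3, limma 3.58.1). Probes above the lowest 5% of their array on at least 4 arrays were kept, which left 56366 of 56605 probes, and probes of a gene were averaged, with a probe lacking a value on any array left out (1 member probe, of Dnajb11). The result correlated with the deposited log2 matrix at 0.9759 or more in every array, and that matrix served as an alternative. The model held fixed terms for delivery and for sex, litters of one mother were treated as correlated (duplicateCorrelation), and eBayes gave the p-values, with Benjamini-Hochberg adjustment over all 36711 genes and a threshold of 0.05. The interaction with sex was added in a second fit, and litters were compared in a fit with 1 mean per mother. The scripts were tested on simulated data. The exact permutation tests took neither sex nor litter into account. Group means are raw, whereas log2 fold changes are adjusted for sex. The number of pups and litters limits the precision, and litter and foster mother lie within delivery mode.

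The members and lists were chosen with earlier results of these data known. Named members are those called, the 2 of each class with the smallest p and 16 heat shock genes of wide interest. Of each other list, the genes called or else the 2 with the smallest p are named. The other genes named (among them Hspa4, Hspa9, Hspa14, Dnajb3, Dnajb6, Dnajb11, Unc45b, Herpud1, Derl3, Eif2ak3 and most of the DNAJC genes) were chosen after their values were seen or for a role stated beside them. Alternatives changed the background correction, normalization, probe filter, probe summary, model, litter correlation, slide and the pups or litters included. The mean over whichever probes have a value was added as an alternative after seeing the data. Results of some marker genes are not reported here.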

Additional observations from a re-analysis of the deposited data

Results flagged for a closer look

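Among 138 groups of pups tested for a value far from the rest, 7 held one, and chance flags about 1 in 20. Bag3 was lowest in CSD pup 6, at 13.09, with the nearest pup at 13.26. Among the other genes, Tomm20 was lowest in VD pup 4, at 12.47 against 12.67, and Rbm3 highest in CSD pup 1, at 11.74 against 11.42. Egr1 was highest in CSD pup 8, at 10.45 against 9.41, the pup with the lowest CSD value of Hsp90aa1 and Dnajc2. Mb was highest in VD pup 7, at 6.63 against 6.13, Cdh5 in VD pup 6, at 9.94 against 9.65, and Uchl1 in VD pup 11, at 10.43 against 9.88. The array of VD pup 11 also had the lowest share of spots well above background among VD arrays, 58.7% against 63.76%.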

How the results depend on the processing

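Of the 81 genes, 3 passed between delivery modes, and 39 alternatives gave from 0 to 10, with the same count in 8. The count was 1 with a normexp offset of 16 and with the deposited matrix, where Hsp90aa1 passed, and 1 without the litter of mother 4, where Hspa8 passed (adjusted p = 0.0483) and the 3 reported genes did not. It was 0 with an offset of 0, with the scanner's corrected signal (quantile normalized or minus the 75th percentile), with a litter correlation of 0.2, with litter means as samples, in males only, on slide 1 only, on slide 2 only and without the litter of mother 5. It was 6 with no mother in the model, 9 with no sex in the model and 10 without the litter of mother 6. Leaving out 1 pup gave from 1 to 5, with 1 without CSD pup 7 or VD pup 4 and 5 without CSD pup 8. At an unadjusted p under 0.05, the alternatives gave from 12 to 25 genes higher and from 3 to 7 lower. Among all genes, 462 passed, 588 with no mother in the model, 1002 with no sex, 11 with a litter correlation of 0.2, none in males only and 2298 without the litter of mother 6. Hsp90aa1 passed in 29 of the 39 alternatives, Dnajc2 in 24 and Dnajb9 in 10, with log2 fold changes from 0.32 to 0.82, 0.19 to 0.61 and 0.18 to 0.33. No direction was reversed among the named genes that were called. Some named genes that were not called did change direction, among them Hspb1 (from -0.43 to 0.58), Hspb7 (-0.20 to 0.59), Hspa1a (-0.12 to 0.31) and Stub1 (-0.21 to 0.01). The cause was not tested. Pups of both groups share the numbers 5 to 9, with correlations of their deviations from -0.067 to 0.216, and 3 of these 10 pups correlated best with their own number, so the numbers were not taken as pairs. With the replicate block 7 of the 81 genes passed, and 706 of all genes.

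Between the VD litters, where 0 of the 81 genes passed, the count was 1 with the scanner's corrected signal quantile normalized, with the brightest probe per gene and with slide as a fixed effect. It was 2 with probes well above background on every array of a group and without the litter of mother 4, and leaving out 1 pup gave from 0 to 2. Between the sexes, where 1 passed, the count was 0 on slide 1 only, on slide 2 only and without the litter of mother 3, of mother 4 or of mother 5. Leaving out 1 pup gave from 0 to 1, with 0 in 6 of the 16 fits. The counts of the interaction and between the CSD litters were 0 under every alternative run. For the comparisons of litters and sexes and the interaction, genes outside the 81 were counted in the main fit only. For the 3 genes not well above background on any array, no difference can be read.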
